A study of Drosophila melanogaster with 9 samples.

Results

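Testes of *tbrd-2* knockdown males were compared with testes of *bam*-Gal4 males, which carry the driver but no hairpin. Of the 9 arrays of the series, 6 enter the comparison, with 3 from knockdown testes and 3 from *bam*-Gal4 testes, chosen by their labels. The other 3 arrays, from undriven *tbrd-2RNAi* testes, serve to show which changes depend on the control. Knockdown males had the *bam*-Gal4 driver once on chromosome X and once on chromosome 3, and the hairpin transgene *tbrd-2RNAi* on the other chromosome 3 (bam/y;+/+;bam/tbrd-2RNAi). The *bam*-Gal4 males carried the same driver copies with an *Sb*-marked chromosome 3 in place of the hairpin chromosome (bam/y;+/+;bam/Sb). Undriven males carried the hairpin chromosome over an *Sb*-marked homologue and no driver (+/+;tbrd-2RNAi/Sb). Knockdown and *bam*-Gal4 males thus shared the driver and differed in a whole chromosome 3, so that the hairpin and that chromosome cannot be told apart in this comparison alone. All flies were raised at 30 °C and were 0 to 2 days old, and every array held independent RNA of whole testes pooled from 30 animals by the labels or 25 by the methods.

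tBRD-2 is a testis-specific protein with a single bromodomain, of the BET family of chromatin proteins. It is made in primary spermatocytes, the growing cells in which most genes needed later for meiosis and sperm formation are transcribed and whose transcripts are often stored until they are translated in spermatids. The *bam* promoter is active in late spermatogonia and early spermatocytes, so *bam*-Gal4 drives the hairpin in the germline just before that programme begins, while somatic cyst cells, testis sheath and any adhering tissue do not carry the knockdown.

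Every array gave RMA log2 signals for 18952 probe sets, with medians from 5.86 to 5.96, and arrays of 1 genotype correlated at 0.988 to 0.997 (Pearson's r across probe sets, a description). Seminal fluid transcripts were uneven within genotypes. For 17 accessory gland and ejaculatory duct genes the mean log2 signal was 10.40, 10.05 and 11.79 in knockdown replicates 1, 2 and 3 and 8.24, 11.83 and 10.36 in the *bam*-Gal4 replicates. For 16 gut genes it stood at 6.93 on the array of knockdown replicate 3, at 6.76 on that of undriven replicate 3 and at 5.12 to 5.62 elsewhere. Of 13 primary spermatocyte markers the means were 9.13 to 9.31 in knockdown, 8.86 to 9.11 in *bam*-Gal4 and 8.91 to 8.97 in undriven testes. Of 10 markers of spermatogonia and germline stem cells they were 6.97 to 7.12, 7.06 to 7.22 and 7.12 to 7.17. The first list holds *mia* (log2-fold change 1.89 against *bam*-Gal4) and the second *esg* (−1.18), which weigh on these means. The median log2-fold changes of the lists were 0.04 and −0.02. In whole testes, fewer cells of a type and less RNA per cell cannot be told apart.

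The targeted transcript was low on every knockdown array. *tbrd-2* had log2 signals of 8.06, 7.82 and 8.05 in knockdown testes, 10.52, 10.52 and 10.73 in *bam*-Gal4 testes and 10.19, 10.39 and 10.36 in undriven testes. The groups did not overlap, and the log2-fold change against *bam*-Gal4 was −2.61 (standard error 0.095, limma adjusted p = 2.73e-06), a signal 6.12-fold lower.

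A change was called where the log2-fold change reached 1 in size and limma's p, adjusted by the Benjamini-Hochberg method, was under 0.05. Against *bam*-Gal4, 94 probe sets (0.496% of all) were lower and 150 (0.791%) higher in knockdown testes. They stood for 80 genes that were lower (0.668% of 11982 genes) and 123 that were higher (1.03%), and 53 of the lower and 56 of the higher genes are known only by an annotation number. Most changes were moderate, with a median log2-fold change of −1.24 among the lower and 1.25 among the higher probe sets, and 10 and 13 probe sets passed 2 in size. At the same adjusted p and any fold, 1529 probe sets (8.07%) were lower and 2000 (10.6%) higher. On single arrays the called lower probe sets had a median of −1.19, −1.26 and −1.30 below the *bam*-Gal4 mean in knockdown replicates 1, 2 and 3, and −0.08, −0.01 and −0.07 in undriven testes. The called higher ones had medians of 1.30, 1.35 and 1.21 in knockdown and 0.22, 0.28 and 0.16 in undriven testes. The calls were made on the same knockdown and *bam*-Gal4 arrays, so knockdown medians past the fold limit follow largely from the call. Of the 150 higher probe sets, 87 had a mean log2 signal under 6 in *bam*-Gal4 testes, where signals of this kind of array are dim and no detection call was used here. Signals of different probe sets are not levels that can be ranked against each other.

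**Figure D1:**
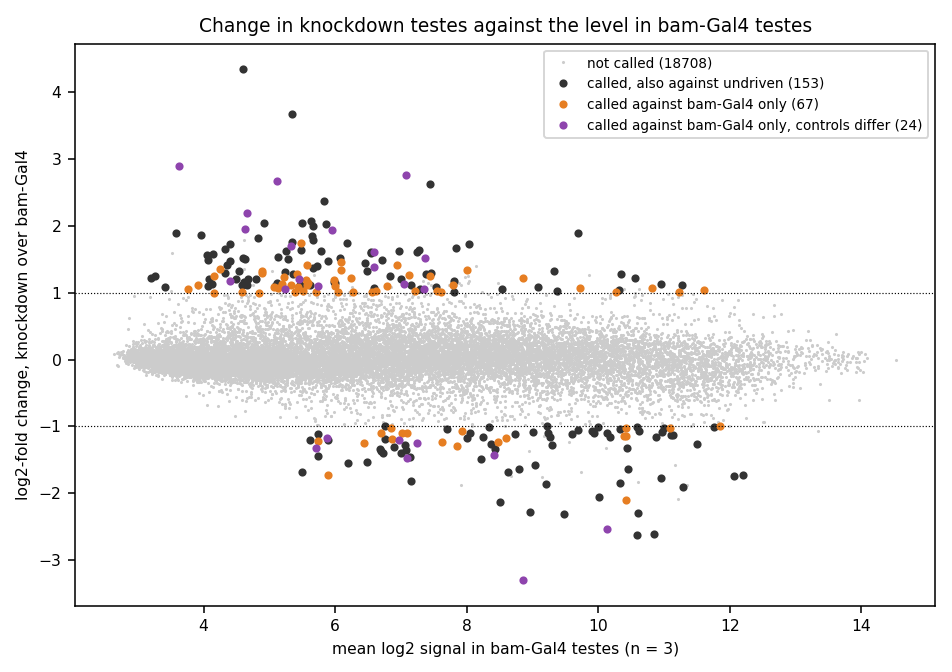
Log2-fold change of knockdown over *bam*-Gal4 testes (vertical axis) against the mean log2 signal in *bam*-Gal4 testes (horizontal axis), 1 point per probe set, with dotted lines at the fold limit. The 153 probe sets also called the same way against the undriven control are black, 67 called against *bam*-Gal4 only are orange, and 24 of that kind whose controls were called different are purple.

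Beyond the 12 genes with the largest fall, the lower genes with a known role are described singly, since none of the gene lists held more than 1 of them. *TbCMF46*, a homologue of a flagellar component of trypanosomes, had log2 signals of 7.34, 6.94 and 7.21 in knockdown testes, 8.95, 8.68 and 8.75 in *bam*-Gal4 testes and 9.17, 9.41 and 9.14 in undriven testes. It was low on all knockdown arrays, 3.10-fold against *bam*-Gal4 (log2-fold change −1.63, standard error 0.121, limma adjusted p = 4.50e-05). *TTLL6A*, of the tubulin tyrosine ligase-like family that modifies tubulin, had 9.43, 9.62 and 9.58 in knockdown testes, 10.74, 10.56 and 10.55 in *bam*-Gal4 testes and 10.69, 10.61 and 10.55 in undriven testes, without overlap, at 1 of its 2 probe sets (log2-fold change −1.07, limma adjusted p = 4.50e-05). *Acyp*, an acylphosphatase, was the most even of these between replicates. It gave 10.30, 10.14 and 10.28 in knockdown testes, 11.51, 11.51 and 11.49 in *bam*-Gal4 testes and 11.54, 11.56 and 11.51 in undriven testes (log2-fold change −1.26, standard error 0.061, limma adjusted p = 7.17e-06). All of them fell against the undriven control as well, by 2.08, 1.07 and 1.30 on the log2 scale.

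*Rbp9*, an RNA-binding protein of the ELAV family, had log2 signals of 7.0, 6.73 and 7.13 in knockdown testes, 8.14, 7.96 and 8.03 in *bam*-Gal4 testes and 8.19, 8.26 and 8.05 in undriven testes. Its log2-fold change against *bam*-Gal4 was −1.09 (limma adjusted p = 0.000199), at 1 of its 2 probe sets. *Hsc70-1*, a heat shock cognate chaperone, gave 9.27, 9.02 and 8.80 in knockdown, 10.22, 9.97 and 10.19 in *bam*-Gal4 and 10.51, 10.23 and 10.22 in undriven testes, and fell by 1.10 on the log2 scale at 1 of its 3 probe sets (−0.98 without knockdown replicate 3, short of the fold limit). Among 14 heat shock and chaperone genes it was the only member called (7.14%, beside 0.668% of all genes called lower), and the median log2-fold change of that list was −0.12. *RpS28a*, a paralogue of a small subunit ribosomal protein, had 8.29, 7.92 and 8.21 in knockdown testes, 9.23, 9.31 and 9.18 in *bam*-Gal4 testes and 9.24, 9.32 and 9.10 in undriven testes. Its log2-fold change of −1.10 was opposite in sign to most of the other cytosolic ribosomal protein genes, and without knockdown replicate 2 it was −0.99, short of the fold limit. *CSN1a*, a paralogue of a COP9 signalosome subunit, and *ste24b*, a paralogue of a protease that processes prenylated proteins, were lower by log2-fold changes of −1.03 and −1.09, again against both controls.

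Single members of several families were lower. *DIP-delta*, an immunoglobulin superfamily protein that binds Dpr proteins at synapses, had log2 signals of 6.92, 6.75 and 7.13 in knockdown testes, 8.66, 8.42 and 8.78 in *bam*-Gal4 testes and 8.30, 8.36 and 8.32 in undriven testes. The log2-fold change was −1.69 against *bam*-Gal4 and −1.39 against undriven, at 1 of its 2 probe sets. *Gr93d*, of the gustatory receptor family, gave 3.72, 3.67 and 4.06 in knockdown, 5.53, 5.49 and 5.45 in *bam*-Gal4 and 5.37, 5.53 and 5.36 in undriven testes (log2-fold change −1.67), and *Ir85a*, of the ionotropic receptor family, had a log2-fold change of −1.28. Each was the only member of its family called lower, among 56 and 53 measured (1.79% and 1.89%, beside 0.668% of all genes). Of 54 axon guidance and adhesion genes 0 were called lower, and of 54 ion channels 0. At the share of all genes, lists of this size could easily hold 0 or 1. *e*, the enzyme that joins beta-alanine to dopamine, had a log2-fold change of −1.31, and *zyd*, a sodium and calcium exchanger known from glia, −1.21. *esg*, a zinc finger factor of stem cells that is also on the list of spermatogonia and germline stem cell markers, had 5.40, 5.61 and 5.70 in knockdown testes, 7.08, 6.51 and 6.67 in *bam*-Gal4 testes and 7.02, 6.33 and 6.69 in undriven testes (log2-fold change −1.18, limma adjusted p = 0.00241), the only one of 10 such markers to be called. The share of these markers called lower was 10%, beside 0.668% of all genes. The odd-skipped family gene *drm* also fell, by 1.20 on the log2 scale.

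Some of the lower genes were less low in knockdown replicate 1 than in the other knockdown arrays. *CG6628* had log2 signals of 11.06, 10.26 and 10.10 in knockdown replicates 1, 2 and 3, 12 to 12.36 in *bam*-Gal4 testes and 12.23, 12.33 and 12.43 in undriven testes. *CG14635* gave 7.95, 7.12 and 7.31 in knockdown, 9.17, 8.94 and 9.0 in *bam*-Gal4 and 9.0, 9.22 and 9.01 in undriven testes, and *CG16995* 7.16, 6.52 and 6.55 in knockdown, 8.46, 7.98 and 8.23 in *bam*-Gal4 and 7.70, 7.89 and 8.06 in undriven testes. Knockdown replicate 1 lay at least 0.5 above replicates 2 and 3 in 11 of the 94 lower probe sets (11.7%), in 0 of the 150 higher ones and in 28 of all 18952 (0.148%). These 11 also included *CAH5*, *CG12506*, *CG13946*, *CG13947*, *CG17917*, *CG32457*, *CG4267* and *CG42827*, and all 11 were called lower against the undriven control too. Their median below the *bam*-Gal4 mean was −1.25, −2.12 and −2.14 in knockdown replicates 1, 2 and 3. They were picked out after their values were seen, so this is a description without a test.

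Genes of glycolysis and sugar metabolism had lower signals in knockdown testes, by less than the fold limit. Of 22 measured genes, 10 (45.5%) were lower at a limma adjusted p under 0.05 and 0 were higher, against 10.1% lower and 14% higher among all genes. The list median was −0.27, beside 0.01 for all genes, and 0 of its members passed the fold limit. On single arrays the median of the list was −0.28, −0.40 and −0.23 from the *bam*-Gal4 mean in knockdown replicates 1, 2 and 3, 0.08, −0.03 and −0.04 in *bam*-Gal4 testes and 0.02, 0.11 and −0.07 in undriven testes. All knockdown arrays thus lay below all arrays of both controls.

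The genes named here for glycolysis were picked after their values were seen. *Pfk*, phosphofructokinase, which commits sugar to glycolysis, had log2 signals of 10.16, 10.16 and 10.06 in knockdown testes, 11.10, 10.80 and 10.86 in *bam*-Gal4 testes and 11.07, 11.15 and 10.88 in undriven testes (log2-fold change −0.79, standard error 0.097, limma adjusted p = 0.000594). *Treh*, trehalase, which splits the blood sugar of insects, gave 9.49, 9.52 and 9.54 in knockdown, 10.26, 10.17 and 10.07 in *bam*-Gal4 and 10.27, 10.24 and 10.14 in undriven testes (log2-fold change −0.65, limma adjusted p = 0.000269). *Hex-t1* and *Hex-t2*, hexokinases of the testis, had log2-fold changes of −0.65 and −0.45. The signals of *Hex-t1* were 9.36, 9.33 and 9.28 in knockdown, 10.08, 9.87 and 9.96 in *bam*-Gal4 and 9.97, 10.10 and 9.90 in undriven testes, again with no overlap. The pyruvate kinase paralogues *CG7069* and *CG2964*, *Ald1* (aldolase), *Gpdh3* (glycerol-3-phosphate dehydrogenase), *Pglym87* (phosphoglycerate mutase) and *Tpi* (triosephosphate isomerase) made up the rest, with log2-fold changes from −0.86 to −0.28. Against the undriven control 10 members were lower as well, 9 of them the same genes, and the list median was −0.24.

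The lists of sperm-building genes held no called member among the genes measured for them, although single other sperm genes, such as *TbCMF46* and *klhl10*, were called. Of all genes 0.668% were called lower and 1.03% higher, so lists of this size could easily hold 0. *klhl10* had been listed for sperm individualization under another spelling of its symbol and was not among the genes measured there. Of 21 genes for axonemal dyneins and their assembly, the motors that move the sperm tail, 0 were called, 5 were lower and 3 higher at an adjusted p under 0.05, and the median was −0.16 (−0.25 against undriven). Of all genes, 10.1% were lower and 14% higher at that p. Among 15 *comet* and *cup* genes, which are transcribed after meiosis, 6 were lower and 0 higher at that p, with a median of −0.07 (−0.27 against undriven). *w-cup* had a mean log2 signal of 12.91 ± 0.01 in knockdown testes and 13.51 ± 0.03 in *bam*-Gal4 testes (SD, n = 3 each), a log2-fold change of −0.60 (limma adjusted p = 0.000127). The structural sperm tail genes (14 measured, median −0.03) and the sperm chromatin genes (7, median −0.08) had 1 member each at that p, lower in both cases. *Mst77F*, a protein that packs sperm chromatin, had a mean of 14.05 ± 0.00 in knockdown and 13.97 ± 0.03 in *bam*-Gal4 testes, near the highest signals on the arrays. The lists of centriole and cilium transport genes (19 measured), mitochondrial shaping in spermatids (16), sperm individualization (14, without *klhl10*), testis paralogues of proteasome subunits (13) and testis paralogues of the respiratory chain (20) also had 0 called, with medians from −0.11 to −0.03.

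**Figure D2:**
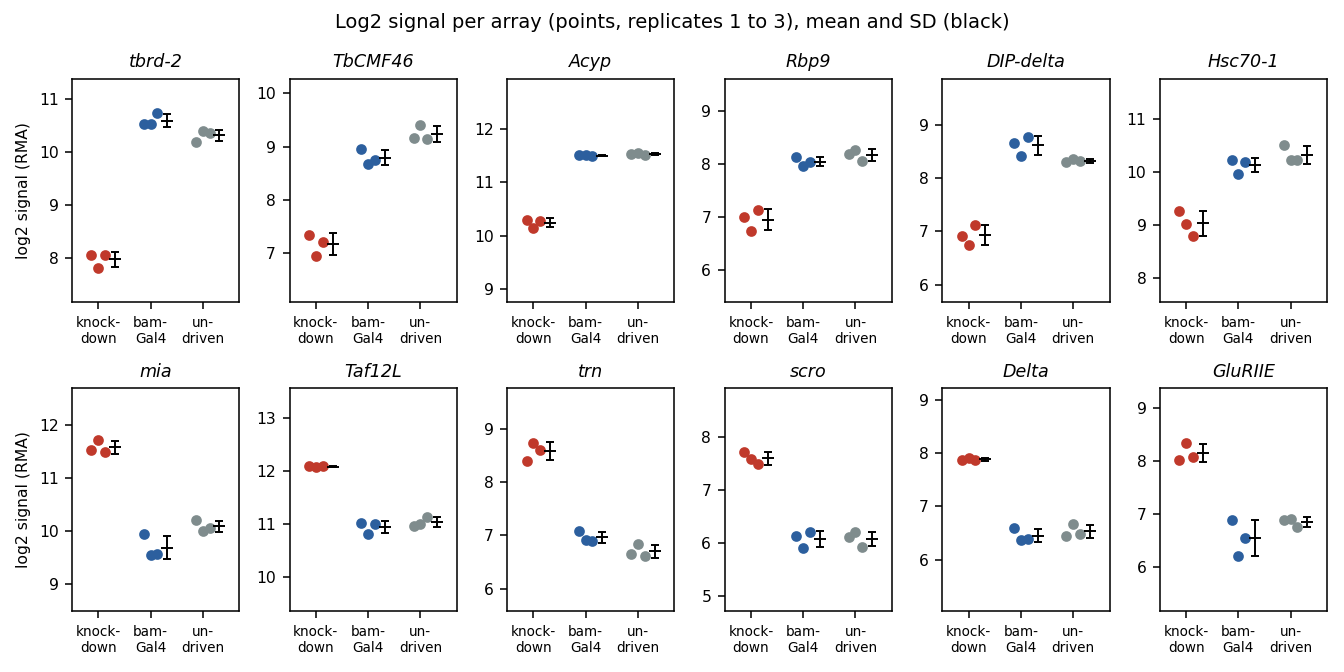
Log2 signal (vertical axes, the same span in every panel) of 6 genes that were lower (upper row) and 6 that were higher (lower row) in knockdown testes, with 3 arrays per genotype as points and the mean with its SD in black. In each panel the knockdown points do not overlap those of *bam*-Gal4 or undriven testes, which lie close to each other.

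The genes that were higher included components of the basal transcription machinery. Of the 5 testis TAFs, which replace general TAFs of the TFIID complex in spermatocytes, 2 were called higher (40%, beside 1.03% of all genes) and 0 lower. At an adjusted p under 0.05 and any fold 3 were higher and 1 lower, beside 14% and 10.1% of all genes. The log2-fold changes of the list went down to −0.37, with a median of 0.61. *mia*, the testis homologue of Taf6, had log2 signals of 11.53, 11.71 and 11.48 in knockdown testes, 9.94, 9.55 and 9.57 in *bam*-Gal4 testes and 10.20, 10.01 and 10.06 in undriven testes. The signal was 3.70-fold higher than in *bam*-Gal4 testes (log2-fold change 1.89, standard error 0.114, limma adjusted p = 2.15e-05), and the groups lay far apart. *Taf12L*, the testis homologue of Taf12, had 12.10, 12.07 and 12.09 in knockdown testes, 11.03, 10.82 and 11.01 in *bam*-Gal4 testes and 10.96, 11.01 and 11.14 in undriven testes, at 1 of its 2 probe sets (log2-fold change 1.13, limma adjusted p = 3.21e-05). *Taf6* itself, the general subunit, gave 8.33, 8.49 and 8.33 in knockdown, 7.32, 6.98 and 7.05 in *bam*-Gal4 and 7.48, 7.38 and 7.54 in undriven testes. Its log2-fold change was 1.27 against *bam*-Gal4 and 0.92 against undriven, below the fold limit there.

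Further regulators of transcription rose against *bam*-Gal4. *MED17*, a subunit of the Mediator complex, had 8.82, 8.99 and 8.91 in knockdown testes, 7.95, 7.70 and 7.73 in *bam*-Gal4 testes and 8.26, 8.30 and 8.27 in undriven testes (log2-fold change 1.11, limma adjusted p = 3.85e-05). *Br140*, a bromodomain and PHD finger protein of a histone acetyltransferase complex, gave 8.13, 8.30 and 8.21 in knockdown, 7.27, 6.91 and 6.83 in *bam*-Gal4 and 7.0, 7.27 and 7.23 in undriven testes (log2-fold change 1.21), and was higher than both controls. *CG17568*, a zinc finger protein with a ZAD domain, was the only 1 of 36 such genes to be called (2.78%, beside 1.03% of all genes called higher). Among 28 Polycomb, Trithorax and histone acetylation genes 0 were called, with a median of 0.14 and 5 higher and 1 lower at an adjusted p under 0.05. The shares of all genes at that p were 14% higher and 10.1% lower.

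Of 69 homeobox genes 3 were called higher (4.35%, beside 1.03% of all genes) and 0 lower. *scro*, a homeobox factor of the NK2 class, had log2 signals of 7.72, 7.59 and 7.48 in knockdown testes, 6.13, 5.91 and 6.20 in *bam*-Gal4 testes and 6.11, 6.20 and 5.93 in undriven testes. The log2-fold change was 1.52 against each control (limma adjusted p = 3.36e-05 against *bam*-Gal4). *CG11617* and *toy*, a Pax6 homologue, were the others, and the list median was 0.01, with 12 members higher and 6 lower at an adjusted p under 0.05. Of all genes, 14% were higher and 10.1% lower at that p. *toy* gave 5.62, 5.69 and 5.50 in knockdown, 4.67, 4.61 and 4.49 in *bam*-Gal4 and 4.72, 4.99 and 4.54 in undriven testes, and its log2-fold change of 1.01, at 1 of its 3 probe sets, was at the fold limit, below which it lay without *bam*-Gal4 replicate 3 (0.96) or knockdown replicate 2 (0.97). Outside that list, *Delta*, the ligand of Notch, was called at both of its probe sets and had 7.88, 7.92 and 7.87 in knockdown testes, 6.59, 6.37 and 6.39 in *bam*-Gal4 testes and 6.44, 6.67 and 6.48 in undriven testes (log2-fold change 1.44, limma adjusted p = 2.04e-05). The gap gene *hkb* and the BTB factor *bab1* rose too, by log2-fold changes of 1.12 and 1.11. *Sik3*, a salt-inducible kinase, was higher by 1.16 on the log2 scale at 1 of its 2 probe sets, and *mr*, a subunit of the anaphase-promoting complex, by 1.02.

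Among 54 axon guidance and neuronal adhesion genes 2 were called, both higher (3.7%, beside 1.03% of all genes). *beat-Ia*, an immunoglobulin protein of motor axon guidance, had log2 signals of 5.57, 5.40 and 5.46 in knockdown testes, 3.86, 3.49 and 3.41 in *bam*-Gal4 testes and 3.87, 3.62 and 3.77 in undriven testes (log2-fold change 1.89, limma adjusted p = 2.44e-05). *trn*, a leucine-rich repeat protein of the cell surface, gave 8.41, 8.75 and 8.61 in knockdown, 7.09, 6.92 and 6.89 in *bam*-Gal4 and 6.66, 6.84 and 6.61 in undriven testes (log2-fold change 1.62, limma adjusted p = 2.44e-05). Both were high on every knockdown array. The list median was −0.01, with 9 members higher and 5 lower at an adjusted p under 0.05. Of all genes, 14% were higher and 10.1% lower at that p. The immunoglobulin protein *klg* and the leucine-rich repeat protein *kek3*, outside that list, rose by 1.25 and 1.21 on the log2 scale.

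*GluRIIE*, a glutamate receptor subunit of the neuromuscular junction, had log2 signals of 8.02, 8.33 and 8.07 in knockdown testes, 6.89, 6.20 and 6.54 in *bam*-Gal4 testes and 6.88, 6.91 and 6.75 in undriven testes (log2-fold change 1.60, limma adjusted p = 0.000202). *slo*, a potassium channel opened by calcium, gave 5.81, 6.30 and 5.90 in knockdown, 4.94, 4.70 and 4.74 in *bam*-Gal4 and 4.90, 5.12 and 4.73 in undriven testes. It was the only called gene of 54 ion channels (1.85%, beside 1.03% of all genes called higher). Of these channels 9 were higher and 1 lower at an adjusted p under 0.05, with a median of 0.04. The shares of all genes at that p were 14% higher and 10.1% lower. *rdgB*, a phosphatidylinositol transfer protein known from photoreceptors, had 7.49, 7.60 and 7.38 in knockdown testes, 5.42, 5.75 and 5.75 in *bam*-Gal4 testes and 6.23, 6.34 and 6.07 in undriven testes (log2-fold change 1.85), at 1 of its 2 probe sets. *ort*, a chloride channel gated by histamine, and *7B2*, a chaperone of neuropeptide processing, were called against *bam*-Gal4 only, with log2-fold changes of 1.25 and 1.09. On the other side, *brp*, a scaffold of the presynaptic active zone, had 5.73, 5.81 and 5.94 in knockdown testes, 7.12, 6.69 and 6.75 in *bam*-Gal4 testes and 6.57, 6.80 and 6.87 in undriven testes, at 1 of its 4 probe sets (log2-fold change −1.03), and its log2-fold change was −0.89 without *bam*-Gal4 replicate 1 and −0.98 without knockdown replicate 1, short of the fold limit. Of 28 genes of synaptic vesicles and transmitter release, *brp* was the 1 called lower and *prt*, a putative vesicular transporter, the 1 called higher (log2-fold change 3.66). Each is 3.57% of the list, beside 0.668% of all genes called lower and 1.03% called higher. At an adjusted p under 0.05 and any fold 7 were higher and 2 lower, beside 14% and 10.1% of all genes. Of 11 general neuronal markers, *brp* among them, 0 were called higher, and their mean log2 signal was 4.76, 4.76 and 4.72 in knockdown, 4.90, 4.74 and 4.85 in *bam*-Gal4 and 4.79, 4.89 and 4.79 in undriven testes.

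Cuticle, stress and receptor genes were higher in small numbers. Of 24 Tweedle genes, which code for structural proteins of the cuticle, 3 were called higher (12.5%, beside 1.03% of all genes) and 0 lower, with a list median of −0.06. *Twdlalpha* had log2 signals of 10.53, 10.78 and 10.65 in knockdown testes, 9.52, 9.23 and 9.23 in *bam*-Gal4 testes and 9.43, 9.56 and 9.49 in undriven testes (log2-fold change 1.33, limma adjusted p = 4.40e-05). *TwdlG* and *TwdlV* had log2-fold changes of 1.48 and 1.12, and all of them were also called against the undriven control. Of 66 *Cpr* cuticle genes, *Cpr78E* (1.50) and *Cpr92F* (1.01) were called higher (3.03%, beside 1.03% of all genes). The list median was −0.07, with 7 lower and 6 higher at an adjusted p under 0.05. Of all genes, 10.1% were lower and 14% higher at that p. *Cpr92F* fell short of the fold limit without *bam*-Gal4 replicate 2 (0.94) or 3 (0.95) or knockdown replicate 1 (0.97) or 2 (0.90). The chitinase *Cht7* and *yellow-f*, of a family that acts in pigment formation, rose by 1.22 and 1.39 on the log2 scale.

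*TotB*, a Turandot protein secreted under stress, had log2 signals of 6.38, 5.87 and 6.12 in knockdown testes, 4.42, 4.40 and 4.37 in *bam*-Gal4 testes and 3.63, 4.29 and 3.73 in undriven testes (log2-fold change 1.73, limma adjusted p = 0.000229). It was the only 1 of 5 Turandot genes to be called (20%, beside 1.03% of all genes called higher), and the list median was −0.14. Of 80 cytochrome P450 genes, *Cyp6a13* (1.28) and *Cyp28d2* (1.10) were called higher (2.5%, beside 1.03% of all genes), the second not against the undriven control. In the families of smell and taste receptors the genes called higher were *Or94a* and *Or65c* among 56 odorant receptors, *Gr23a* among 56 gustatory receptors, where *Gr93d* was lower, and *Obp57a* among 47 odorant binding proteins. *Obp57a* gave 5.24, 5.24 and 5.27 in knockdown, 4.10, 4.25 and 4.01 in *bam*-Gal4 and 4.11, 4.34 and 4.02 in undriven testes, and was the only 1 of the 4 higher ones that was also called against undriven. The shares called higher lay between 1.79% and 3.57%, beside 1.03% for all genes. Without *bam*-Gal4 replicate 3, *Or65c* (0.99) and *Cyp28d2* (1.0 after rounding) were just short of the fold limit. *mthl11*, a receptor of the methuselah family, and *Sr-CIV*, a scavenger receptor, had log2-fold changes of 1.65 and 1.53.

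Nuclear genes for mitochondrial ribosomal proteins had higher signals, again below the fold limit. Of 66 measured, 27 (40.9%) were higher at a limma adjusted p under 0.05 and 0 were lower, against 14% and 10.1% of all genes, and 57 had a log2-fold change above 0. The list median was 0.20 beside 0.01 for all genes, and on single arrays it was 0.28, 0.16 and 0.15 above the *bam*-Gal4 mean in knockdown testes, 0.04, −0.06 and 0.01 in *bam*-Gal4 testes and 0.04, 0.06 and 0.01 in undriven testes. Against the undriven control 23 members were higher, 18 of them the same genes, and 1 was lower, with a median of 0.17. *mRpS24*, picked like the next gene after its value was seen, had log2 signals of 9.57, 9.42 and 9.50 in knockdown, 8.60, 8.47 and 8.67 in *bam*-Gal4 and 8.82, 8.98 and 8.85 in undriven testes (log2-fold change 0.92, standard error 0.077, limma adjusted p = 9.18e-05). *mRpL42* gave 9.70, 9.52 and 9.60 in knockdown, 9.01, 8.99 and 9.05 in *bam*-Gal4 and 8.97, 9.10 and 8.96 in undriven testes (log2-fold change 0.59, limma adjusted p = 0.000466). Both were higher on every knockdown array.

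Of 34 measured genes for cytosolic ribosomal proteins, 11 (32.4%) were higher and 2 lower at an adjusted p under 0.05, with a median of 0.20. The lower ones were the paralogues *RpS28a* and *RpL10Aa*. *RpLP0*, of the stalk of the large subunit, had log2 signals of 12.37, 12.33 and 12.35 in knockdown and 11.96 to 12.06 in *bam*-Gal4 testes (log2-fold change 0.34, limma adjusted p = 0.00246). Only 34 of the 85 genes of this family have a probe set with a single symbol here. The number higher varied with the fit. It was 7 without knockdown replicate 1, where 1240 of all genes were higher in place of 1678, and 5 without the arrays highest in seminal fluid transcripts, knockdown replicate 3 and *bam*-Gal4 replicate 2, where 986 were. It was 17 with either level filter, where 1684 of 9425 genes (mean log2 signal of 5 or more) and 1590 of 7837 (6 or more) were higher. With array weights it was 18, where 2486 of all genes were higher, and with a variance trend 21, where 1696 were. The list median was 0.15 to 0.23 under these alternatives and the others run. The mitochondrial count was 18 to 34 under the same alternatives, and that of all genes 986 to 2486.

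**Figure D3:**
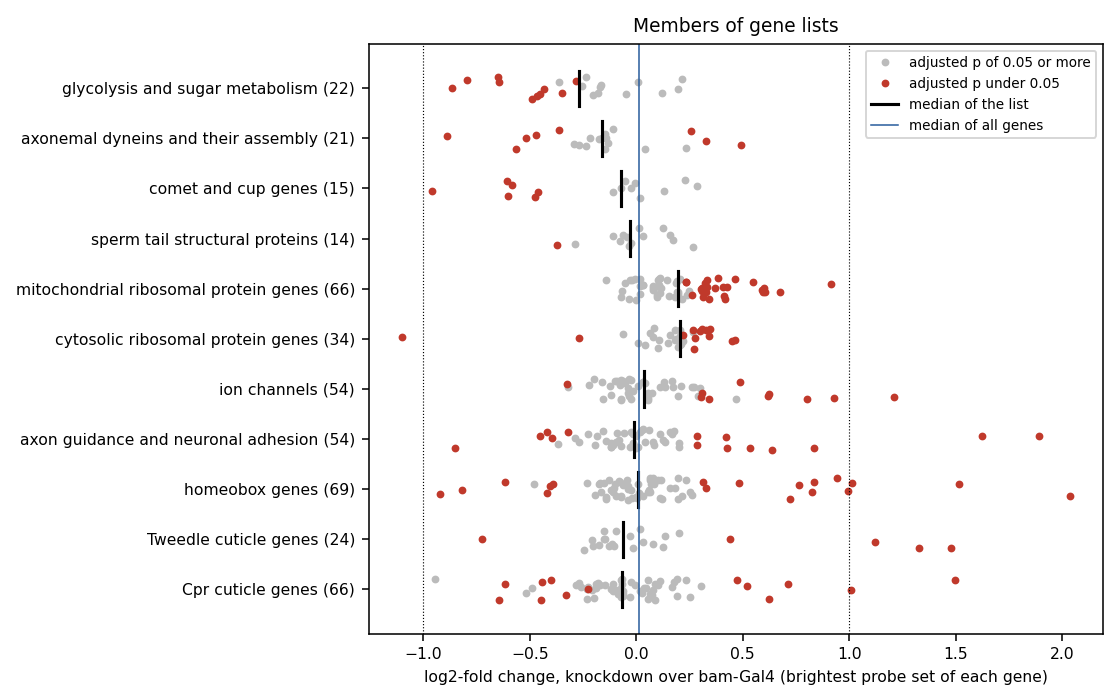
Log2-fold change of knockdown over *bam*-Gal4 testes (horizontal axis) for the members of 11 gene lists (rows, number measured in brackets), 1 point per gene at its brightest probe set, red where limma's adjusted p was under 0.05. Black bars are list medians and the blue line is the median of all genes (0.01). The glycolysis points lie mostly left of it, the ribosomal protein points mostly right, and the homeobox, adhesion, channel and cuticle lists centre on it with a few members far to the right.

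The undriven control did not show all of these changes. Against it, 119 probe sets (0.628%) were called lower and 120 (0.633%) higher in knockdown testes. Of the 94 lower probe sets, 67 were also called lower against it and 27 (0.142% of all) were not, and of the 150 higher ones 86 were also called and 64 (0.338%) were not. By genes, 21 that were lower and 54 that were higher were called against *bam*-Gal4 only. Most of these had the same sign against undriven and failed its fold limit. At an adjusted p under 0.05 against undriven and below the fold limit were 11 of the 21 lower and 35 of the 54 higher genes, among them *klhl10*, *brp*, *Trxr2*, *Taf6*, *MED17*, *Hph*, *ort*, *toy* and *Or65c*. For the 27 lower and 64 higher probe sets the median log2-fold change was −1.20 and 1.13 against *bam*-Gal4, and −0.50 and 0.75 against undriven. The undriven mean lay between those of *bam*-Gal4 and knockdown testes in 24 of the 27 and 54 of the 64, and at or beyond the knockdown mean in the other 3 and 10. These probe sets were chosen for missing the call against undriven. The smaller medians against undriven, and the 0 undriven means on the far side of the *bam*-Gal4 mean, follow largely from that choice.

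*klhl10*, the adaptor of a ubiquitin ligase that activates caspases while spermatids separate, had log2 signals of 9.28, 9.48 and 9.08 in knockdown testes, 10.50, 10.21 and 10.56 in *bam*-Gal4 testes and 10.53, 9.93 and 9.92 in undriven testes. The log2-fold change was −1.14 against *bam*-Gal4 (limma adjusted p = 0.00202) and −0.85 against undriven. *Trxr2*, a thioredoxin reductase, gave 9.50, 9.34 and 9.38 in knockdown, 10.50, 10.36 and 10.42 in *bam*-Gal4 and 10.24, 10.43 and 10.21 in undriven testes, −1.02 and −0.89 against the controls. *Hph*, the prolyl hydroxylase that marks the hypoxia factor for destruction, had 8.45, 8.46 and 8.13 in knockdown, 7.18, 6.76 and 6.88 in *bam*-Gal4 and 7.32, 7.62 and 7.29 in undriven testes, 1.41 and 0.94 against the controls. In each of these probe sets the knockdown arrays stood apart from both controls, but *Hph* was called at 1 of its 2 probe sets, and the other had a log2-fold change of −0.10 (limma adjusted p = 0.563). *snky*, needed for the breakdown of the sperm membrane in the egg, and *Pss*, phosphatidylserine synthase, were of the same kind, with 1.22 and 1.01 against *bam*-Gal4 and 0.75 and 0.91 against undriven.

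In a smaller set the controls disagreed. For 17 genes, 5 that were lower and 12 that were higher against *bam*-Gal4, the controls themselves were called different, which is the test of the difference between the 2 comparisons. Against undriven, *pbl* was still higher at an adjusted p under 0.05 and below the fold limit (0.56, limma adjusted p = 0.00631), and of the others none changed the same way at that p. *CG5292* had log2 signals of 8.18, 8.24 and 8.13 in knockdown, 6.64, 6.69 and 6.42 in *bam*-Gal4 and 8.04, 7.86 and 7.79 in undriven testes (1.60 against *bam*-Gal4, 0.29 against undriven). *neo*, a zona pellucida domain protein of the cuticle side of the epidermis, gave 8.80, 8.93 and 8.93 in knockdown, 7.52, 6.95 and 7.64 in *bam*-Gal4 and 9.42, 9.31 and 9.37 in undriven testes (1.52 and −0.48). *Eig71Eg*, of a cluster of ecdysone-induced genes, had 6.83, 6.46 and 6.42 in knockdown testes, 4.96, 4.57 and 4.35 in *bam*-Gal4 testes and 6.60, 6.67 and 6.45 in undriven testes (1.94 and 0.00). In these genes the knockdown and undriven arrays lay together or close. That *bam*-Gal4 stood apart from both follows from how the set was chosen.

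*Or94a* belonged to the same set, with 6.94, 7.45 and 6.68 in knockdown, 5.20, 5.26 and 5.53 in *bam*-Gal4 and 6.76, 6.62 and 6.56 in undriven testes. Among the lower genes, *CG13737* had 5.82, 5.30 and 5.74 in knockdown, 7.12, 7.09 and 7.07 in *bam*-Gal4 and 5.55, 5.72 and 5.76 in undriven testes (−1.47 against *bam*-Gal4, −0.06 against undriven). *CG15554* gave 5.86, 5.79 and 5.67 in knockdown, 6.94, 7.08 and 6.91 in *bam*-Gal4 and 5.22, 5.47 and 5.28 in undriven testes (−1.20 and 0.45). *CG3857*, *CG17816* and *CG15546* completed the lower set (the other probe set of *CG3857* was higher, by 0.67 on the log2 scale, limma adjusted p = 0.0109), and *pbl*, *CG13445*, *CG17477*, *CG44838*, *CG11626*, *CG14545*, *CG10000* and *CG32006* the higher one. *CG32006* was the only gene called in opposite directions, with 8.70, 8.61 and 7.93 in knockdown, 7.53, 7.26 and 7.28 in *bam*-Gal4 and 9.79, 9.28 and 9.53 in undriven testes (1.06 against *bam*-Gal4, −1.12 against undriven). Its call against *bam*-Gal4 fell short of the fold limit without knockdown replicate 1 (0.91) or 2 (0.96). The signals of *CG3857*, *CG17816* and *CG44838* come from probe sets that may match more than 1 transcript.

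**Figure D4:**
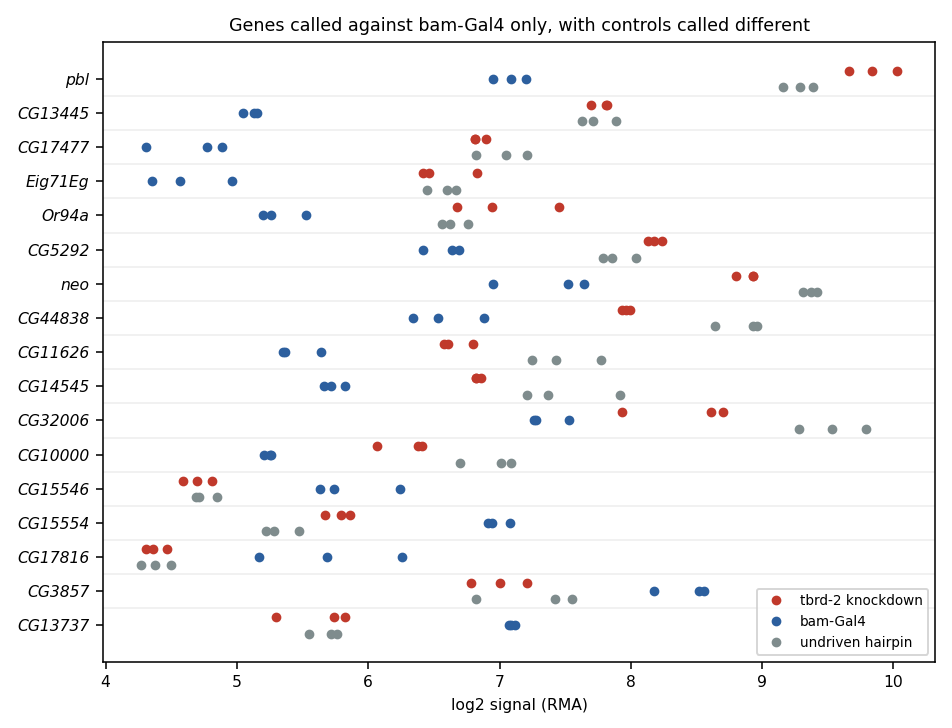
Log2 signal (horizontal axis) of the 17 genes called in knockdown against *bam*-Gal4 testes only, with the controls called different (rows), 1 point per array and 3 arrays per genotype. Knockdown (red) and undriven (grey) points lie on the same side of the *bam*-Gal4 points (blue) in every row, which follows from how the genes were chosen.

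For 12 more genes, 5 lower and 7 higher, the change against undriven had an adjusted p of 0.05 or more while the controls were not called different. In 2 of the lower (*CG34283* and *Elovl7*) and 4 of the higher genes (*mod(mdg4)*, *Cpr92F*, *CG8745* and *Cyp28d2*) the controls did differ at an adjusted p under 0.05 and missed only the fold limit, for example by 0.86 for *CG34283* and −0.78 for *mod(mdg4)* on the log2 scale (*bam*-Gal4 minus undriven, limma adjusted p = 0.000237 and 0.000522). Over all probe sets called against *bam*-Gal4 only, the controls differed at that p in 13 of the 27 lower and 27 of the 64 higher ones. *Tsf1*, transferrin, which carries iron in the blood, had log2 signals of 8.64, 8.32 and 8.03 in knockdown testes, 11.41, 9.54 and 10.32 in *bam*-Gal4 testes and 10.08, 9.12 and 9.83 in undriven testes. It was low on every knockdown array, and the control arrays were widely spread (log2-fold change −2.09, standard error 0.423, limma adjusted p = 0.00817, and −1.35 with adjusted p = 0.0548 against undriven). Of its 3 probe sets 2 were called, and the other called one was lower against both controls. *obst-A*, a chitin-binding protein, gave 4.47, 3.77 and 4.29 in knockdown, 6.58, 5.46 and 5.65 in *bam*-Gal4 and 4.41, 4.50 and 5.02 in undriven testes, so that knockdown and undriven overlapped. *CG34283* had 10.99, 10.78 and 10.79 in knockdown, 11.88, 11.82 and 11.86 in *bam*-Gal4 and 10.95, 11.01 and 11.01 in undriven testes (log2-fold change −1.0 and −0.14). *Elovl7*, a fatty acid elongase, and *BomT3*, a Bomanin of the immune response, were the other lower ones, with −1.10 and −1.06 against *bam*-Gal4.

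Of the 7 higher genes, 4 had their highest knockdown and undriven signals on the arrays with high gut transcripts, knockdown replicate 3 and undriven replicate 3. *CG15406* had log2 signals of 7.41, 7.34 and 7.85 in knockdown, 6.27, 5.79 and 6.19 in *bam*-Gal4 and 6.69, 6.45 and 7.49 in undriven testes. *Npc2d*, of a family of lipid-binding proteins, gave 5.89, 6.13 and 6.63 in knockdown, 4.81, 5.15 and 4.71 in *bam*-Gal4 and 5.48, 5.48 and 6.73 in undriven testes, and *CG9380* 7.1, 7.21 and 7.94 in knockdown, 5.99, 6.16 and 6.10 in *bam*-Gal4 and 6.53, 5.91 and 7.73 in undriven testes. *CG8745* had 6.84, 6.72 and 7.37 in knockdown, 5.57, 5.77 and 5.37 in *bam*-Gal4 and 6.55, 6.44 and 6.58 in undriven testes. Its undriven arrays lay close together (SD 0.07), so that undriven replicate 3 hardly stood out, unlike in the genes before it. The gut genes stood at 5.12, 5.24 and 6.93 in knockdown, 5.35, 5.34 and 5.33 in *bam*-Gal4 and 5.62, 5.37 and 6.76 in undriven testes, and their part in these changes was not tested. Without knockdown replicate 3 *CG15406* kept a log2-fold change of 1.29 (limma adjusted p = 0.0166). The others were *Cyp28d2*, *Cpr92F* and *mod(mdg4)*, a chromatin insulator gene with many transcripts that was called at 1 of its 22 probe sets (7.04, 7.16 and 6.96 in knockdown, 6.11, 6.01 and 6.0 in *bam*-Gal4 and 6.78, 6.91 and 6.78 in undriven testes).

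The genes called against *bam*-Gal4 only and with differing controls lay mostly on chromosome 3. That chromosome held 15 of the 17 (88.2%), chromosome X 1 (*CG3857*), chromosome 4 1 (*CG32006*) and chromosome 2 none, beside 44.7% on chromosome 3 and 38.9% on chromosome 2 among 11898 genes of known position. Of the 57 placed genes called against *bam*-Gal4 only whose controls were not called different, 33 (57.9%) lay on chromosome 3. Of genes called against both controls, 28 of 59 lower (47.5%) and 39 of 69 higher (56.5%) did so. Between the controls themselves, where 39 probe sets (0.206%) were lower and 33 (0.174%) higher in *bam*-Gal4 testes (0.38% in all), 41 of 52 genes (78.8%) lay on chromosome 3 and 0 on chromosome 2. The chromosome that separates knockdown from *bam*-Gal4 males is a chromosome 3, which undriven males share with the knockdown, and its part in these changes was not tested.

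**Figure D5:**
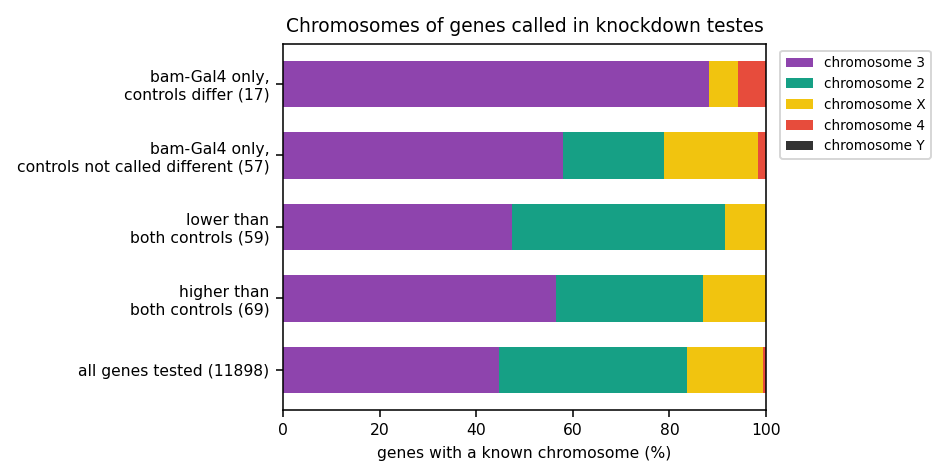
Share of genes (horizontal axis, percent of genes with a known chromosome) on chromosomes 3, 2, X, 4 and Y for sets of genes called in knockdown against *bam*-Gal4 testes and for all genes tested (rows, number of genes in brackets). Chromosome 3 takes 88.2% of the set with differing controls and 44.7% of all genes.

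Of the called genes placed in the gene order, 77 lower ones held 2 adjacent pairs and 123 higher ones held 3. How many pairs genes drawn at random would give was not computed. Next to each other in the gene table lay *CG12506*, *CG13946* and *CG13947* among the lower genes, and 3 pairs among the higher ones. These were *CG10140* (log2-fold change 1.41) with *CG14109* (1.32), *CG32568* (1.22) with *Twdlalpha* (1.33), and *CG31436* (1.81) with *CG31370* (1.01). *CG32568* had log2 signals of 11.64, 11.97 and 11.73 in knockdown, 10.78, 10.46 and 10.44 in *bam*-Gal4 and 10.69, 10.52 and 10.53 in undriven testes. *CG10140* had 5.88, 5.71 and 5.70 in knockdown, 4.43, 4.23 and 4.39 in *bam*-Gal4 and 4.44, 4.37 and 4.23 in undriven testes. Neighbours were sought among lower and among higher genes separately, so that pairs of opposite direction were not counted. Of the genes of these higher pairs, *CG31370* alone was not called against undriven, where its log2-fold change was 0.92.

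Of the called genes 28 had more than 1 probe set, and for 26 of them not every probe set was called. Among the called probe sets, 9 lower and 20 higher ones have no symbol here and 3 and 6 have several. The largest fall of all was in a probe set without a symbol, with log2 signals of 5.17, 5.58 and 5.93 in knockdown, 8.73, 8.75 and 9.09 in *bam*-Gal4 and 5.48, 5.24 and 5.56 in undriven testes. It was low in knockdown and undriven testes alike, with −3.30 against *bam*-Gal4 and 0.13 against undriven.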

How the data were processed

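The values that the authors deposited are log2 signals with 2 decimals. Per the methods the arrays were read with affy and summarized by RMA, that is, background-corrected, quantile-normalized and reduced to 1 value per probe set and array. For that step no version or setting is given in the sources used here. Log2-fold changes were computed from the deposited values with limma 3.58.1 (lmFit and eBayes, R 4.3.3) with 1 mean for each genotype and all 9 arrays together, which left 6 residual degrees of freedom (9.23 after eBayes), and p-values were adjusted over all probe sets. Changes were rounded to 4 decimals before the fold limit, so a change of exactly 1 counts. For arrays, their number limits the precision. The script was tested on simulated data.

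Probe sets took symbols from the platform annotation (13647 with 1 symbol, 402 with several, 4903 not named here), updated through the RefSeq table of Release 6 plus ISO1 MT, where 13550 were found. A gene counts as called if any of its probe sets is, and list medians use its brightest probe set. Named are *tbrd-2*, genes ranked 13 to 30 in each direction, the 12 largest in each direction called against *bam*-Gal4 only, genes called in opposite directions, and from each of 55 gene lists up to 4 called members or the brightest. Genes outside that rule were named after their values were seen. The comparison, the lists and the rule were chosen with earlier results of these data known. Alternatives were the replicate number as a block, 6-array fits, other normalizations, level filters, variance models and thresholds, leaving out each array and counting genes. Sequences were not used here. Plots used matplotlib 3.10.9 in Python 3.11.15.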

Additional observations from a re-analysis of the deposited data

Results flagged for a closer look

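For 13 of the named genes the difference between the controls, which is the test of the difference between knockdown against *bam*-Gal4 and knockdown against undriven, was itself called by limma. In log2 units of *bam*-Gal4 minus undriven, *bam*-Gal4 was higher for *CG13737* (1.42), *CG3857* (1.16), *CG17816* (1.32) and *CG15554* (1.65). It was lower for *pbl* (−2.20), *CG13445* (−2.63), *CG17477* (−2.37), *Eig71Eg* (−1.95), *neo* (−2.0), *CG44838* (−2.26), *Or94a* (−1.32), *CG5292* (−1.31) and *CG32006* (−2.18).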

How the results depend on the processing

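Counts of probe sets called against *bam*-Gal4 stayed within 1.5 times under the alternatives run except a level filter and the counting of genes. At an adjusted p under 0.05 and any fold, 1207 genes were lower and 1678 higher, but 775 and 986 without knockdown replicate 3 and *bam*-Gal4 replicate 2. With a mean log2 signal of at least 6 required, 92 probe sets were higher against *bam*-Gal4, 49 against both controls, and 14 list members were higher, in place of 150, 86 and 24. Counting genes gave 5 in place of 8 lower with differing controls. Leaving out single arrays gave 87 to 109 lower and 138 to 179 higher probe sets, 59 to 73 and 75 to 95 called against both controls, 27 to 37 and 55 to 91 against *bam*-Gal4 only, and a log2-fold change of the tbrd-2 transcript of −2.66 to −2.54. With each array centred on its median there were 108 lower and 131 higher. That pair of arrays was left out as an alternative chosen after seeing the data, and 107 lower and 156 higher probe sets were then called.

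The replicate number as a block gave 94 lower and 150 higher probe sets, the same ones as without it. Same-numbered arrays deviated from their group means with correlations of −0.58 to 0.33, and differently numbered ones with −0.515 to 0.547. Deviations within a genotype of 3 arrays depend on each other. The correlations therefore cannot decide whether same-numbered arrays share more than a number. Of 2227 values for 113 named genes besides *tbrd-2*, 2205 kept direction and call, 21 lost the call, 1 gained it and 0 changed sign. With 3 arrays per genotype and dim signals for many of the higher genes, changes near the fold limit are the least certain.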
